A study of Drosophila melanogaster with 24 samples.

Results

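Genes for the nuclear-encoded subunits of the respiratory chain and the ATP synthase were picked by symbol from a table of read counts for 16995 fly genes. Symbols that start with ND- gave complex I, SdhA to SdhD complex II, UQCR- complex III, COX followed by a digit complex IV, and ATPsyn the ATP synthase (complex V). The rule used no measured value and found 78 genes: 40 in complex I, 4 in complex II, 8 in complex III, 11 in complex IV and 15 in the ATP synthase. All 78 symbols matched a single protein-coding gene of Ensembl release 115.

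The counts came from 24 libraries, each made from the brain of 1 fly of the white-eyed laboratory strain w1118, so that replicates were separate adult mated animals. There were 8 groups of 3 libraries: for each sex label, uninjured controls and animals hit once in a high-impact trauma device and sampled 1, 2 or 4 hr later. The device injures the whole body and not the head alone. Libraries were made with a 3′ mRNA kit that reads one end of each polyadenylated transcript, and a level is therefore given as CPM, the counts of a gene as a share of its library after TMM scaling, a measure that does not grow with transcript length. In a whole brain, fewer cells of a type and less RNA per cell cannot be told apart.

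The libraries were unequal in depth, and the sex labels did not match a sex-specific RNA. Total counts ran from 46943 to 1769669 per library, so that 3 counts, the limit below which a gene without a read can lie, were worth 2.03 to 51.2 CPM. roX1, a noncoding RNA of male dosage compensation, was at 714 to 1024 CPM in the 12 male-labelled libraries and at 722 to 1261 CPM in 10 of the 12 libraries labelled female. It was at 6.20 CPM in the library labelled female 2 hr replicate 2 and at 79.7 CPM in the one labelled female 4 hr replicate 2. The groups are therefore called female-labelled and male-labelled, and the fold changes and sums in which those 2 libraries weigh most are also given without both. All 8 neuron markers and all 6 glia markers had reads, and the summed level of the neuron markers ranged from 304 to 3764 CPM, with the lowest value in female-labelled 2 hr replicate 2. Muscle markers summed to 953 to 5024 CPM and fat body markers to 4417 to 39007 CPM, with Fbp1 at 0.

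Complexes I to IV pass electrons from NADH and succinate to oxygen in the inner mitochondrial membrane, and complexes I, III and IV pump protons as they do so. The ATP synthase lets the protons back through the membrane, which turns its rotor ring there. The central stalk turns with the ring inside the catalytic head and drives the synthesis of ATP. Complex II is also the succinate dehydrogenase of the citric acid cycle, and neurons are known for a high demand for this pathway. A few subunits of complexes I, III, IV and V are encoded in mitochondrial DNA and are not among the genes described here.

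Nearly all of the transcript came from the main copy of each subunit. Of the 78 genes, 16 are L paralogs, copies whose symbol is that of another subunit followed by L, and 13 of these had no read in any library. The other 3 had 38 reads in all (ATPsynepsilonL 25, ND-B14.5AL 12 and ND-24L 1) out of 864149 reads on the whole set. In fly, several such copies are known as testis genes, and the testis markers together had 58 reads in all libraries. Of the 62 main copies, 60 had reads. ND-MNLL and UQCR-14 had none: the exons of ND-MNLL overlap CG45089 on the same strand, which had 0 reads as well, and those of UQCR-14 overlap CG32576 on the opposite strand, which had 137. ND-B8 had only 100 reads in all. The 59 genes that passed the filter on low counts in every fit were 32 of complex I, all 4 of complex II, 5 of complex III, 7 of complex IV and 11 of the ATP synthase. Exons of 29 of the 78 genes overlap a gene on the other strand (SdhA with CG11257, SdhB with CG15237, ATPsynbeta with CG11076). Since the strand setting of the counting is not known, reads of such pairs cannot be told apart. Exons of 7 members, ND-MNLL included, overlap a gene on the same strand. Among them are COX6B (with CG18809), ND-15 (CG3436), ND-MWFE (Nrk) and UQCR-Q (CG46525).

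The set took 2.83% to 6.41% of the reads of a library (median 5.53%). Complex IV had 33.4% of its summed level, complex I 30.7%, the ATP synthase 24.8%, complex III 9.92% and complex II 1.20%. The most abundant members were ATPsynC, the subunit of the rotor ring (mean 5235 CPM, 3479 to 7287 over the libraries), and 3 subunits of complex IV, COX6B (4355 CPM, 1607 to 6020), COX4 (4155 CPM, 1769 to 5884) and COX5A (4131 CPM, 1294 to 7022). In the ATP synthase the next were ATPsynD at 1314 CPM and ATPsynCF6, the coupling factor, at 1133 CPM. Complex I was led by 3 accessory subunits, ND-AGGG (2261 CPM), ND-B12 (1872 CPM) and ND-B14.7 (1312 CPM), and complex III by UQCR-6.4 (1754 CPM), the core protein UQCR-C2 (1324 CPM) and UQCR-Q (1136 CPM). Several catalytic subunits were lower than these leading members. ATPsynbeta, which carries the catalytic sites of the head, was at a mean of 295 CPM. ND-51, the NADH-binding subunit of complex I, was at 416 CPM, rank 15 in its complex. SdhA and SdhB were at 54.4 and 66.7 CPM. A low level was not common to all: blw, the partner of ATPsynbeta in the head and outside the symbol rule, was at 1068 CPM. The complex II membrane anchors were at 313 CPM (SdhC) and 223 CPM (SdhD).

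**Figure D1:**
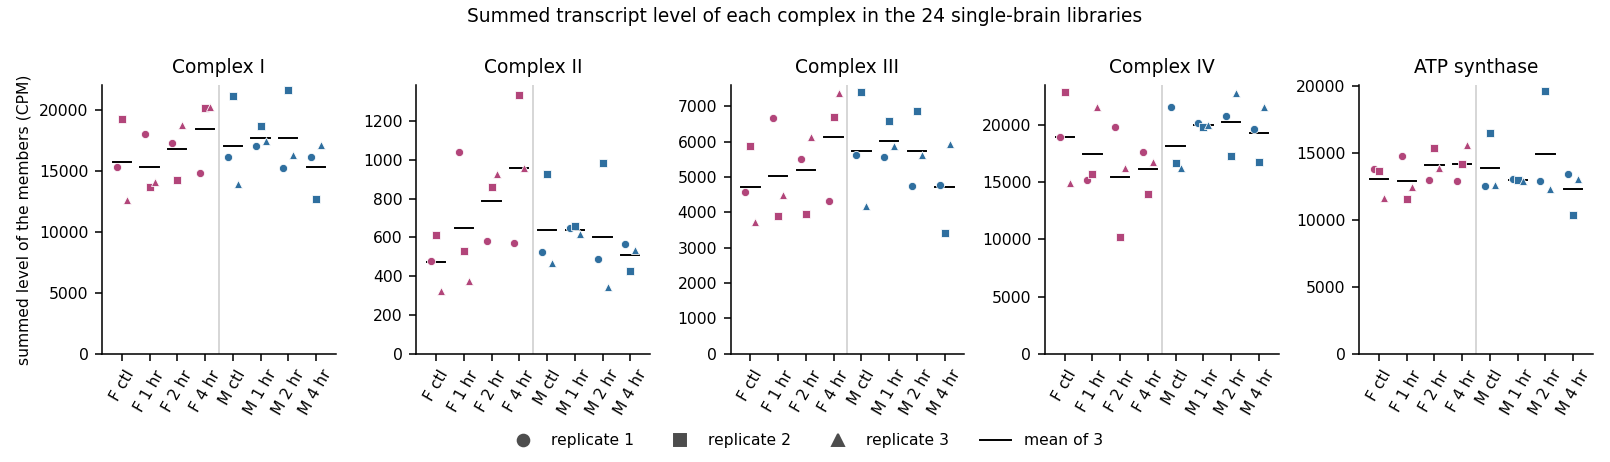
Summed level (CPM, TMM scaled) of the members of each complex in each of the 24 libraries, by group (F, female-labelled; M, male-labelled; ctl, uninjured control); symbols are replicates 1 to 3 and lines are means of 3. Complex II is at 325 to 613 CPM in the female-labelled controls and at 572 to 1336 CPM at 4 hr, and the lowest complex IV value, 10181 CPM, is that of female-labelled 2 hr replicate 2.

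The question put to these data was whether respiratory chain transcripts differ between injured and uninjured brains at each time and sex label. No member passed the threshold (edgeR quasi-likelihood test, adjusted p under 0.05 with |log2FC| over 1) in any of the 10 comparisons made, and 0% of all genes tested did. DESeq2 and limma-voom also called 0 members in each comparison. Of the 59 members, those with an unadjusted p under 0.05 and a higher level numbered 0 in female-labelled flies at 1 hr (1.39% of all genes tested), 4 at 2 hr (6.93%) and 4 at 4 hr (4.78%), and 0 were lower at these times (0.27%, 0.203% and 0.304%). In male-labelled flies 0 were higher (0.849%, 1.34% and 0.693%), and 1 was lower at each of 1 hr (0.693%), 2 hr (1.1%) and 4 hr (1.23%). These counts depended on the tool and on single libraries: at 2 and 4 hr in female-labelled flies DESeq2 gave 7 and 5 higher (9.41% and 6.02% of all genes in those fits) and limma-voom 13 and 14 (7.43% and 8.11%). Leaving out 1 library at a time moved the edgeR counts between 1 and 7 at 2 hr, and the share of all genes moved as well. There was 1 without 2 hr replicate 2 (1.77% of all genes), 2 without control replicate 3 (5.38%) and 7 without 2 hr replicate 1 (9.22%). At 4 hr the counts moved between 0 and 6, with 0 without 4 hr replicate 3 (3.61%), 1 without 4 hr replicate 2 (1.5%) and 1 without control replicate 3 (3.47%).

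The median log2 fold change of the members in female-labelled flies was -0.02 at 1 hr, -0.01 at 2 hr and 0.22 at 4 hr, against 0.05, 0.00 and 0.04 for all genes tested. In male-labelled flies it was -0.03, 0.03 and -0.23, against -0.04, 0.02 and -0.02. The medians depend on the scaling: when library size alone replaced TMM, the median of all genes at female-labelled 2 hr moved to -0.26 and that of the members to -0.27, and at 4 hr to -0.19 and -0.04. At male-labelled 4 hr they moved to 0.11 and -0.07, with the members below all genes under both scalings. That comparison also depended on single libraries. As they were left out 1 at a time under TMM, the median of the members ranged from -0.29 to 0.02. The median of all genes ranged from -0.06 to 0.01.

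**Figure D2:**
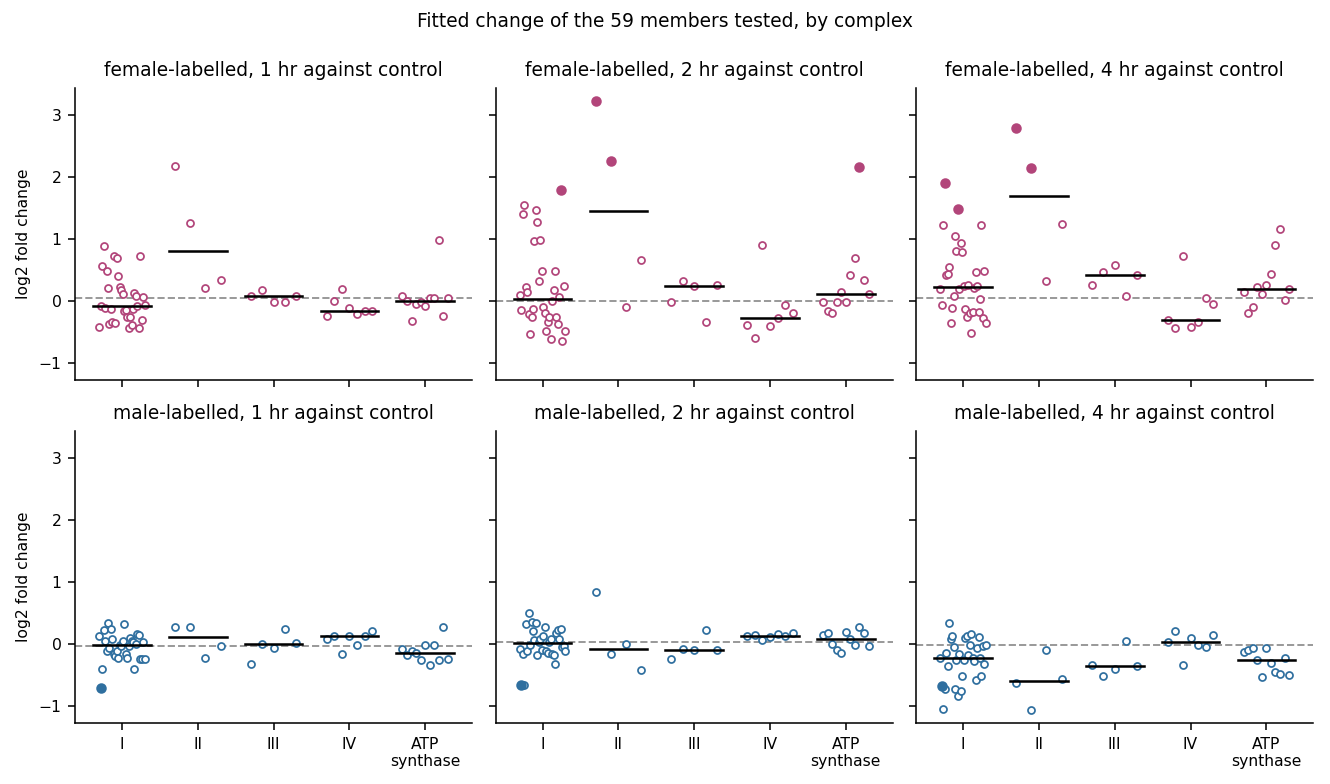
Fitted log2 fold change against control of the 59 members tested (points), by complex, in the 6 comparisons; filled points have an unadjusted p under 0.05 in the edgeR test, black lines are medians of a complex and the dashed line is the median of all genes tested. SdhA and SdhB are the highest points of the female-labelled 2 hr and 4 hr panels, at 3.22 and 2.26 and at 2.79 and 2.14, and the one filled point of each male-labelled panel is ND-13B.

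Among the 59 members tested, complex II had the largest fitted changes in female-labelled flies. They were those of its catalytic subunits SdhA and SdhB. SdhA, the flavoprotein that oxidises succinate, was at 15.9, 14.6 and 0 CPM in female-labelled control replicates 1, 2 and 3. It was at 123, 31.1 and 8.58 CPM at 1 hr, at 36.5, 239 and 98.2 CPM at 2 hr and at 22.5, 109 and 137 CPM at 4 hr. All 3 libraries at 2 hr and at 4 hr lay above every control, and at 1 hr replicate 3 did not. The controls held 22 SdhA reads in all, and the absence of a read in control replicate 3, with 52388 counts, allows a level of up to 46.4 CPM, which is above replicate 1 at 2 hr and at 4 hr. The fitted log2 fold change was 2.18 ± 1.05 (SE) at 1 hr (edgeR adjusted p = 1.00), 3.22 ± 1.06 at 2 hr (adjusted p = 0.535, 0.0724 to 1.00 over the alternatives) and 2.79 ± 1.05 at 4 hr (adjusted p = 0.929, 0.264 to 1.00 over the alternatives). Without both libraries with little roX1, it was 2.38 at 2 hr and 2.65 at 4 hr.

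SdhB, the iron-sulfur subunit that takes the electrons from SdhA, was at 39.7, 33.4 and 0 CPM in the female-labelled controls. It was at 128, 46.7 and 21.5 CPM at 1 hr, at 55.6, 235 and 137 CPM at 2 hr and at 31.0, 225 and 128 CPM at 4 hr. All 3 libraries at 2 hr lay above every control, while replicate 3 at 1 hr and replicate 1 at 4 hr did not. The fitted log2 fold change was 1.25 ± 0.91 at 1 hr, 2.26 ± 0.91 at 2 hr (edgeR adjusted p = 0.579, 0.187 to 1.00 over the alternatives) and 2.14 ± 0.91 at 4 hr (adjusted p = 0.929, 0.288 to 1.00 over the alternatives). It was 1.71 and 1.47 without both libraries with little roX1, where ATPsynbeta at 4 hr, at 1.51, was no lower than SdhB. The libraries that carried both subunits highest at 2 hr (replicate 2) and 4 hr (replicates 2 and 3) were among the deepest of the series.

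The membrane anchors were less variable. SdhC was at 298, 361 and 201 CPM in the female-labelled controls, at 425, 327 and 262 CPM at 1 hr, at 280, 221 and 325 CPM at 2 hr and at 279, 475 and 351 CPM at 4 hr. These groups overlapped at every time, and the log2 fold changes were 0.21, -0.10 and 0.32. SdhD was at 127, 204 and 124 CPM in the controls, at 366, 125 and 85.8 CPM at 1 hr, at 208, 163 and 366 CPM at 2 hr and at 240, 527 and 342 CPM at 4 hr. Only at 4 hr did all 3 lie above every control (1.24 ± 0.61, and 0.91 without both libraries with little roX1). Summed over the 4 subunits, complex II was at 473 ± 144 CPM (SD, n = 3) in the controls, 650 ± 348 at 1 hr, 788 ± 183 at 2 hr and 956 ± 382 at 4 hr, with log2 ratios to control of 0.37, 0.75 and 0.98 against pooled SDs of 0.62, 0.42 and 0.55. Without both libraries with little roX1 the 2 and 4 hr ratios were 0.68 and 0.69. Scaled by library size alone the ratios were 0.22, 0.37 and 0.70.

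**Figure D3:**
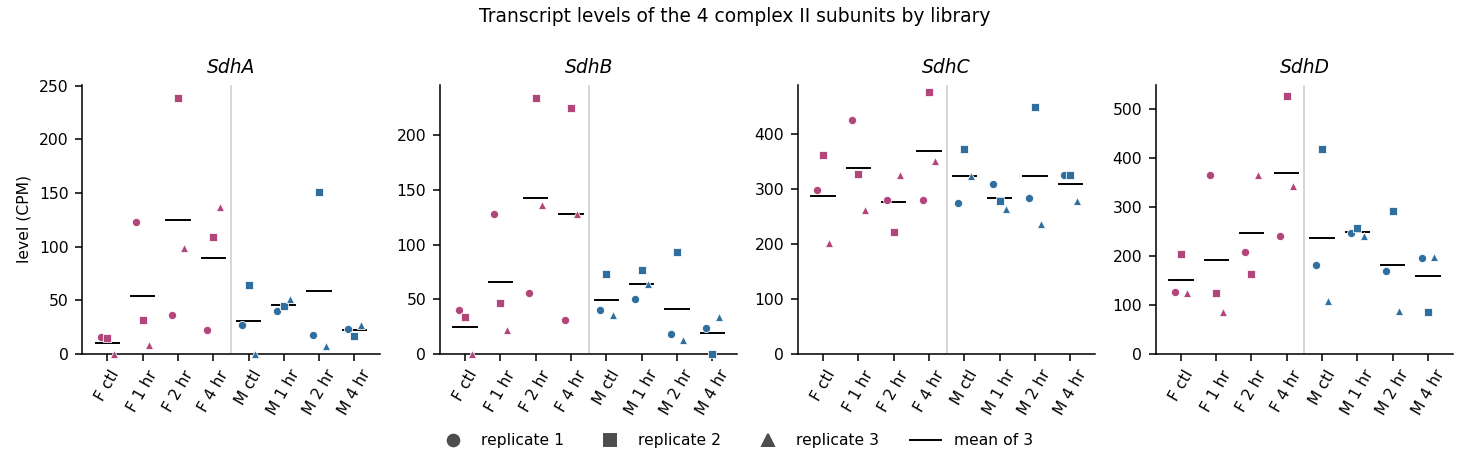
Level (CPM, TMM scaled) of the 4 complex II subunits in each of the 24 libraries, by group (F, female-labelled; M, male-labelled; ctl, uninjured control); symbols are replicates 1 to 3 and lines are means of 3. SdhA spans 0 to 239 CPM and SdhB 0 to 235 CPM, both with their highest value in female-labelled 2 hr replicate 2, while SdhC stays between 201 and 475 CPM.

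Complex I had no common direction in female-labelled flies at 2 hr. Of its 32 members tested, 16 had a fitted change above 0 and 16 below, with a median of 0.02, and the summed level was 15738 ± 3338 CPM in controls and 16779 ± 2298 CPM at 2 hr. At 4 hr 21 were above 0 and 11 below, with a median of 0.22. ND-51, which binds NADH and the flavin, was at 246, 309 and 108 CPM in controls, at 351, 686 and 650 CPM at 2 hr and at 271, 784 and 866 CPM at 4 hr. All 3 libraries at 2 hr lay above the controls, but replicate 1 at 4 hr lay within their range. The log2 fold changes were 1.27 ± 0.62 and 1.47 ± 0.63 (adjusted p = 0.929 at 4 hr, 0.264 to 1.00 over the alternatives), and the 4 hr value was 1.33 without both libraries with little roX1.

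ND-MLRQ, whose mammalian homolog is also found with complex IV, was at 286, 171 and 201 CPM in the female-labelled controls and at 273, 1600 and 509 CPM at 2 hr. The 2 hr groups overlapped through replicate 1, and the fitted log2 fold change of 1.79 ± 0.66 (adjusted p = 0.545, 0.140 to 1.00 over the alternatives) was 0.85 without both libraries with little roX1. At 4 hr it was at 333, 482 and 741 CPM, all above the controls (1.22 ± 0.66). ND-18, another accessory subunit, was at 31.8, 34.2 and 30.9 CPM in controls and at 19.7, 236 and 112 CPM at 4 hr. Replicate 1 lay below all controls and the others above (1.89 ± 0.82, adjusted p = 0.929, 0.350 to 1.00 over the alternatives), and the value was 1.09 without those 2 libraries. ND-42 had a wide spread at 1 hr, with 341, 125 and 90.1 CPM against 87.4, 154 and 92.8 CPM in controls (0.72 ± 0.62).

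Complex III and the ATP synthase had summed levels within the spread between libraries. Complex III was at 4733 ± 1086 CPM in female-labelled controls, 5025 ± 1453 at 1 hr, 5197 ± 1115 at 2 hr and 6144 ± 1601 at 4 hr, and its 5 tested members were all above 0 at 4 hr (median 0.42). The core protein UQCR-C2 was at 1240, 1326 and 1145 CPM in controls and at 1498, 269 and 1189 CPM at 2 hr, where replicate 2 was the lowest library of the series. The ATP synthase was at 13042 ± 1197 CPM in controls and 12944 ± 1646, 14072 ± 1210 and 14215 ± 1332 CPM at 1, 2 and 4 hr. ATPsynbeta, its catalytic subunit, was at 171, 155 and 77.3 CPM in controls, at 571, 125 and 112 CPM at 1 hr, at 201, 1386 and 356 CPM at 2 hr and at 231, 147 and 555 CPM at 4 hr. All 3 libraries lay above the controls at 2 hr (2.16 ± 0.82, adjusted p = 0.547, 0.115 to 1.00 over the alternatives), though replicate 2 was far above the others, and the value was 1.00 without both libraries with little roX1. The rotor subunit ATPsynC was at 6170, 4703 and 5523 CPM in the controls and at 5040, 5461 and 4536 CPM at 2 hr, with overlapping groups. The sums of complexes I, III and V at 2 hr stood above control by TMM (log2 ratios 0.10, 0.14 and 0.11) and below it by library size alone (-0.28, -0.25 and -0.27).

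Most members of complex IV had a fitted level below control in female-labelled flies. Of its 7 members tested, 6 had a fitted change below 0 at 1 hr and 2 hr and 5 at 4 hr, with medians of -0.16, -0.28 and -0.31, and none had an unadjusted p under 0.05. Its summed level was 18918 ± 3962 CPM in controls, 17493 ± 3555 at 1 hr, 15414 ± 4879 at 2 hr and 16128 ± 1906 at 4 hr, and the log2 ratios of -0.11, -0.33 and -0.22 (-0.27, -0.71 and -0.49 by library size alone) were not beyond the pooled SD of 0.41 at 2 hr and 0.25 at 4 hr by TMM. The 2 hr ratio rested on replicate 2 (10181 CPM, against 19838 and 16223 CPM in the others), and without both libraries with little roX1 the TMM ratios were -0.05 at 2 hr and -0.12 at 4 hr. COX5A, a subunit at the matrix face, was at 4795, 4311 and 3867 CPM in controls and at 4672, 1294 and 2674 CPM at 2 hr, with replicate 1 inside the range of the controls (-0.60 ± 0.53). COX5B, which binds zinc, went the other way: it was at 509, 346 and 526 CPM in controls and at 535, 1359 and 772 CPM at 2 hr (0.91 ± 0.51), where all 3 libraries lay above every control, replicate 1 by little. COX4 and COX6B had fitted changes of -0.39 ± 0.41 and -0.41 ± 0.48 at 2 hr. Without both libraries with little roX1 the 2 hr values were -0.24 (COX5A), 0.52 (COX5B), -0.05 (COX4) and -0.06 (COX6B).

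Counting members whose 3 injured libraries all lay outside the range of the 3 controls gave the following counts, beside the shares of all genes. In female-labelled flies 0 members were higher and 2 lower at 1 hr (3.62% and 3.28% of all genes tested), 8 higher and 2 lower at 2 hr (9.61% and 5.12%), and 5 higher and 1 lower at 4 hr (7.99% and 3.84%). In male-labelled flies 2 were higher and 4 lower at 1 hr (6.28% and 2.91%), 1 higher and 0 lower at 2 hr (2.37% and 1.86%), and 0 higher and 4 lower at 4 hr (4.05% and 3.46%). Named after their values were seen, the members lower at male-labelled 4 hr were ATPsyngamma, ND-13B, ND-B16.6 and SdhB.

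In male-labelled flies the fitted changes of SdhA and SdhB were smaller and differed in sign with the time. SdhA was at 27.3, 64.4 and 0 CPM in the controls, at 39.6, 44.9 and 51.2 CPM at 1 hr, at 17.7, 151 and 7.70 CPM at 2 hr and at 23.4, 17.1 and 26.7 CPM at 4 hr. The groups overlapped at every time, and the log2 fold changes were 0.26 ± 0.85, 0.84 ± 0.84 and -0.63 ± 0.96. Replicate 2 carried the 2 hr value, which was -1.69 without it. SdhB was at 40.0, 72.8 and 35.9 CPM in the controls and at 23.4, 0 and 33.8 CPM at 4 hr, all below every control (-1.07 ± 0.74), but the library at 0 had 46943 counts and allows up to 51.2 CPM.

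The one member of each male-labelled comparison with an unadjusted p under 0.05 was ND-13B, an accessory subunit of complex I, and its p depended on single libraries. It was at 329, 624 and 455 CPM in the controls, at 283, 281 and 319 CPM at 1 hr, at 244, 400 and 257 CPM at 2 hr and at 322, 273 and 301 CPM at 4 hr. All libraries at 1 hr and 4 hr lay below every control, and at 2 hr replicate 2 lay within their range. The log2 fold changes were -0.72 ± 0.30, -0.66 ± 0.30 and -0.68 ± 0.31 (edgeR adjusted p = 0.999, 1.00 and 0.999; 0.688 to 1.00, 0.360 to 1.00 and 0.531 to 1.00 over the alternatives). Without control replicate 2 they were -0.38, -0.31 and -0.35. The unadjusted p under 0.05 was also lost without 1 hr replicate 1 or 2 at 1 hr, and without 10 of the 12 libraries taken 1 at a time at 2 hr and 8 of the 12 at 4 hr. At 2 hr the count of members lower at an unadjusted p under 0.05 was 13 without 2 hr replicate 2 (7.39% of all genes in that fit), a library that held the highest value of 11 members over the series.

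Other members with the smallest p in male-labelled flies had changes of under 1 on the log2 scale, save ND-15 at 4 hr. At 1 hr these were ND-B12 (0.32 ± 0.24), the core subunit ND-23 (0.33 ± 0.27) and ND-SGDH (-0.25 ± 0.22), and at 2 hr ND-23 (0.49 ± 0.28), the core subunit ND-30 (0.35 ± 0.24) and ND-B12 (0.27 ± 0.24). At 4 hr they were ATPsynE (-0.54 ± 0.32), ATPsyngamma of the central stalk (-0.50 ± 0.31) and ND-15 (-1.06 ± 0.66). ATPsyngamma was at 482, 675 and 479 CPM in the controls and at 448, 273 and 441 CPM at 4 hr, below every control in all 3 libraries. At 4 hr 47 of the 59 members had a fitted change below 0, against 2340 of all 4474 genes tested (52.3%). By library size alone it was 33 of the 59 members, against 1804 of the 4474 genes (40.3%). Below 0 by TMM were all 11 of the ATP synthase (median -0.26) and all 4 of complex II (median -0.60), while complex IV had 4 above and 3 below. Replicate 2 at 4 hr, the shallowest library of the series, held the lowest value of 15 members over all 24 libraries. A deep library, female-labelled 2 hr replicate 2 with 1527109 counts, held the lowest value of 15 members as well, and the highest of 8.

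The sex labels were compared directly as a difference in the change from control. At 1 hr 0 members had an unadjusted p under 0.05 in either direction (1.23% of all genes tested were higher in female-labelled flies and 0.494% lower), at 2 hr 2 were higher and 0 lower (4.91% and 0.531%), and at 4 hr 7 were higher and 0 lower (5.68% and 0.677%). The smallest adjusted p of a member was 1.00, 0.850 and 0.733. At 4 hr the largest were SdhA (3.34 ± 1.51), SdhB (3.22 ± 1.24), ND-18 (2.53 ± 1.09) and ND-51 (2.30 ± 0.88). Without both libraries with little roX1 these were 3.20, 2.48, 1.72 and 2.10. The members with the smallest p at 2 hr were ND-18 (2.25 ± 1.06, and 2.20 without both) and SdhB (2.49 ± 1.19, and 1.86 without both), and at 1 hr SdhA (1.83 ± 1.45) and ND-75, a core subunit (0.59 ± 0.52). Leaving out 1 library at a time moved the 4 hr count between 1, without male-labelled control replicate 2 (2.43% of all genes in that fit), and 12, without female-labelled 4 hr replicate 1 (8.91%). The 2 hr count moved between 0 and 10, with 10 without male-labelled 2 hr replicate 2 (10.7%) and 0 without female-labelled 2 hr replicate 2 (1.63%). Between the uninjured controls of the sex labels 0 members had an unadjusted p under 0.05 (0.531% higher and 1.5% lower), 1 member, ND-MWFE, named after its values were seen, did not overlap and was higher in female-labelled flies (3.52%) while 0 were lower (3.84%), and the smallest p were those of ND-42 (-0.99 ± 0.61) and ND-51 (-0.99 ± 0.62).

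Subunits of one complex did not keep a fixed proportion across libraries. The pairs described next were chosen after their values were seen and carry no test. For every 100 reads of COX5A there were 28.9 to 105 reads of COX5B in the 6 deepest libraries, which had at least 1341672 counts, and 4.22 to 33.3 in the other 18. The ND-51 reads per 100 of ND-B12 were 37.2 to 106 in the deepest and 6.38 to 46.9 in the others, and those of UQCR-C1 per 100 of UQCR-C2 were 59.4 to 228 and 23.9 to 68.8. ATPsynbeta per 100 ATPsynC was 4.21 to 25.4 against 1.40 to 8.06. Male-labelled control replicate 2 was the highest of the shallower libraries in each of these 4 ratios, and in the first 3 it was the only one inside the range of the deepest. For ATPsynbeta per ATPsynC, 3 more shallow libraries (5.57, 5.27 and 4.85) lay above the lowest of the deepest, female-labelled 4 hr replicate 2. SdhA per 100 SdhC was 22.9 to 108 against 0 to 19.5, with no overlap, and SdhB per 100 SdhC was 20.7 to 106 against 0 to 27.7.

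**Figure D4:**
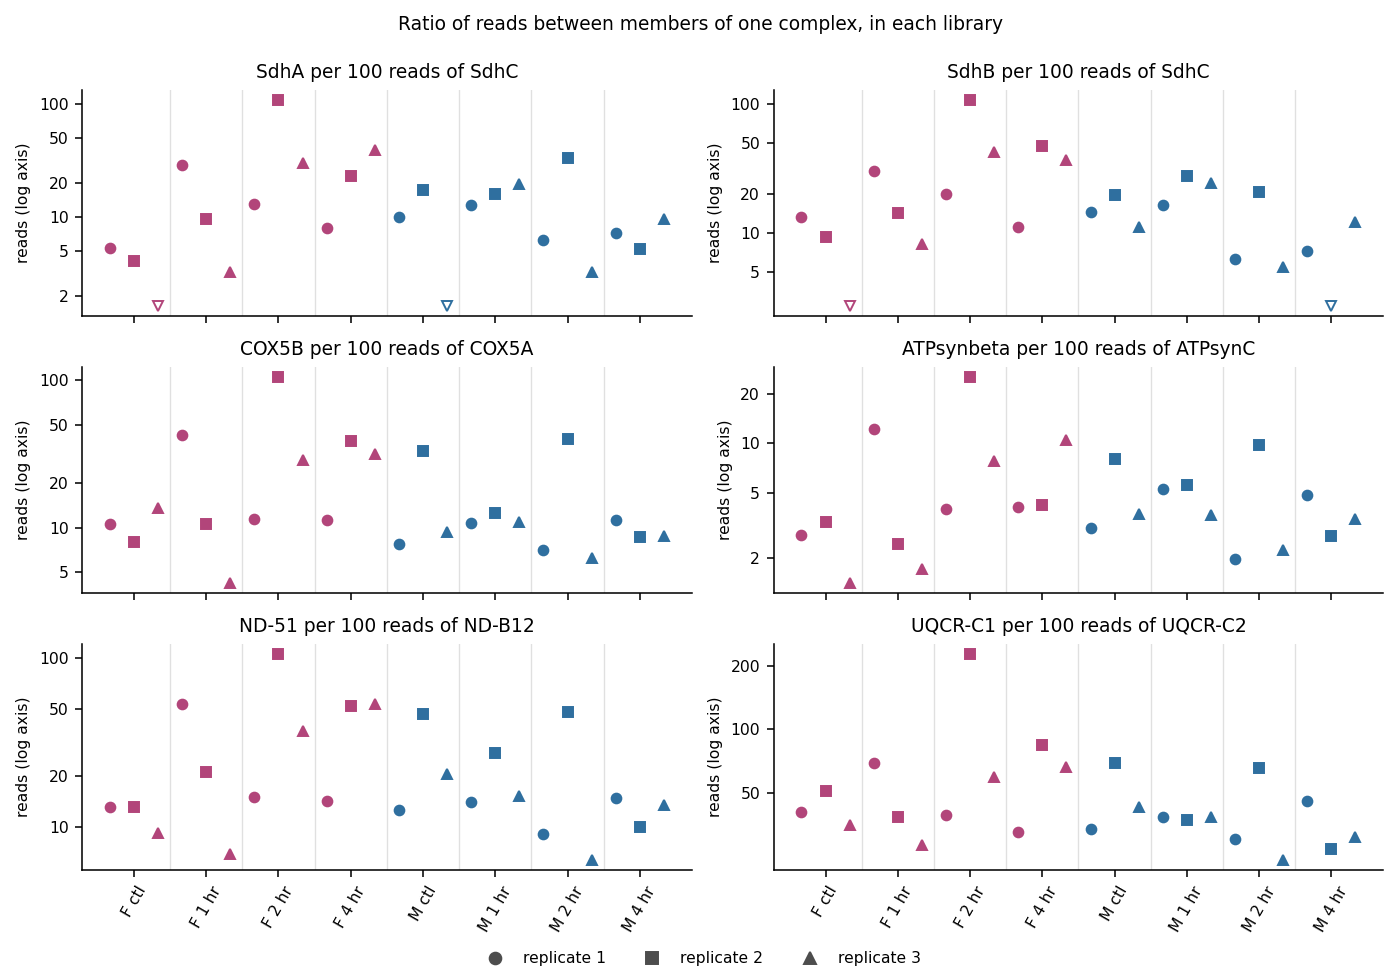
Reads of one subunit per 100 reads of another of the same complex in each of the 24 libraries (log axis), by group, for 6 pairs; symbols are replicates 1 to 3 and an open triangle at the bottom marks 0 reads. Female-labelled 2 hr replicate 2 is the highest library in all 6 pairs, with 105 COX5B reads per 100 of COX5A and 108 SdhA reads per 100 of SdhC.

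Depth and the groups were not independent. Of the 6 deepest libraries, 5 were injured female-labelled flies (1 hr replicate 1, 2 hr replicates 2 and 3, 4 hr replicates 2 and 3), 1 was male-labelled 2 hr replicate 2 and 0 were controls. Female-labelled control replicate 2 and male-labelled 1 hr replicate 2 were nearly as deep, with 1193051 and 1119538 counts. They had 8.02 and 12.7 COX5B reads per 100 of COX5A, and 13.2 and 27.3 ND-51 reads per 100 of ND-B12. Their SdhB reads per 100 of SdhC were 9.23 and 27.7, the latter the highest of the shallower libraries. The neuron markers summed to 304 to 2029 CPM in the 6 deepest libraries and to 1966 to 3764 CPM in the others, where the lowest was male-labelled control replicate 2, and the glia markers to 873 to 1514 CPM and 1526 to 2180 CPM. Photoreceptor markers summed to 5410 to 15293 CPM in the deepest libraries and 3724 to 8377 CPM in the others. Fat body markers summed to 4417 to 39007 CPM in the deepest and 4460 to 10445 CPM in the others. They were highest in female-labelled 1 hr replicate 1 (39007 CPM) and 2 hr replicate 2 (37891 CPM). Muscle markers summed to 953 to 5024 CPM in the deepest and 2388 to 4502 CPM in the others. The part of depth and of these markers in the subunit ratios and in the SdhA and SdhB differences was not tested.

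**Figure D5:**
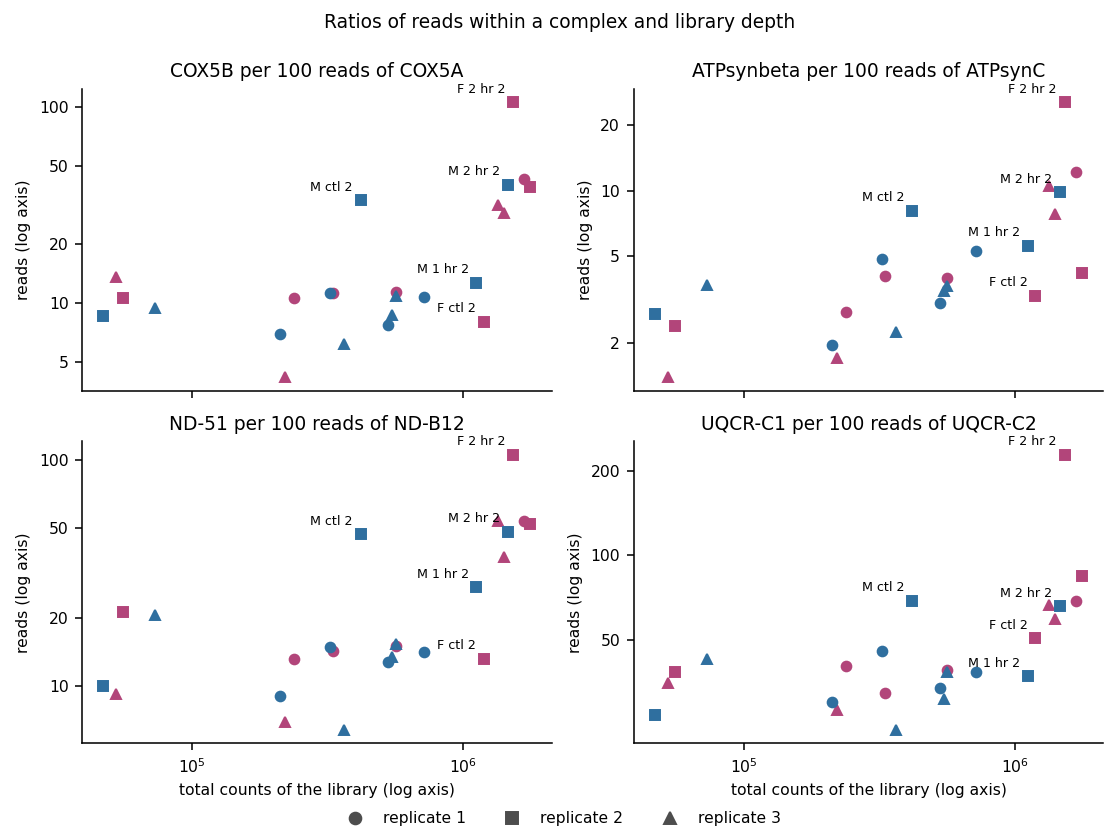
Reads of one subunit per 100 reads of another against the total counts of the library, both on log axes, for 4 pairs and 24 libraries (F, female-labelled, and M, male-labelled, in separate colours). The 6 libraries with at least 1341672 counts have 28.9 or more COX5B reads per 100 of COX5A, as does male-labelled control replicate 2 at 33.3, and the next highest of the shallower libraries is at 13.6.

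Other genes of the pathway were not called by edgeR in any comparison (0 of 8 tested subunits and electron carriers that the symbol rule leaves out, 0 of 11 assembly factors and regulators, or 9 in male-labelled flies, and 0 of 12 genes of the citric acid cycle and pyruvate dehydrogenase). At female-labelled 2 and 4 hr the medians were -0.05 and 0.05 for the subunits and carriers, 0.58 and 0.65 for the assembly factors and -0.01 and 0.15 for the citric acid cycle. sun, the epsilon subunit of the ATP synthase, was at 19.9, 15.5 and 30.9 CPM in female-labelled controls, at 29.5, 569 and 90.6 CPM at 2 hr and at 36.6, 75.0 and 157 CPM at 4 hr. Replicate 2 was far above the others at 2 hr, where replicate 1 lay inside the range of the controls, while all 3 libraries at 4 hr lay above it. The log2 fold change was 3.44 ± 1.01 at 2 hr (edgeR adjusted p = 0.514) and 2.15 ± 0.98 at 4 hr, and 1.67 and 2.36 without both libraries with little roX1. cype, a subunit of complex IV, had the next smallest p of that list at 2 hr (-0.23 ± 0.37).

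Idh, an isocitrate dehydrogenase, was at 143, 91.9 and 170 CPM in female-labelled controls, at 238, 665 and 230 CPM at 2 hr and at 178, 669 and 310 CPM at 4 hr. All injured libraries at 2 and 4 hr lay above every control, and replicate 2 was the highest at both times. The log2 fold changes were 1.46 ± 0.63 and 1.52 ± 0.63, and 0.85 and 0.93 without both libraries with little roX1. Next in the citric acid cycle list at 2 hr was l(1)G0255, listed as Fum1, a fumarase (1.39 ± 0.75). Of the assembly factors, the smallest p at 2 hr were those of CG31648, listed as Cox11 (3.13 ± 1.58, on 237 reads in all libraries), and Sdhaf3 (1.47 ± 0.97, on 352 reads). CG31648 was at 0, 1.63 and 15.5 CPM in female-labelled controls and at 15.6, 54.8 and 8.31 CPM at 2 hr, with overlapping groups. Without both libraries with little roX1 it was not among the genes tested, and Sdhaf3 was at 1.77. blw, the alpha subunit that forms the catalytic head with ATPsynbeta, was at 1075 ± 144 CPM in controls and 1041 ± 41.7 CPM at 2 hr. In male-labelled flies 0 genes of the 3 lists had an unadjusted p under 0.05.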

How the data were processed

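The authors demultiplexed reads with CASAVA 1.8.2, aligned them to the dm3 build with STAR 2.4 and tabulated them per gene with HTSeq, and the deposited table holds raw read counts per gene for the 24 libraries. For HTSeq, its version, annotation and strand setting were not stated in the sources available. Columns with the authors' own edgeR 3.22.3 comparisons (fold changes and p-values) were not used. Genes were filtered with filterByExpr and tested with edgeR 4.0.16 (R 4.3.3, TMM scaling, quasi-likelihood test, Benjamini-Hochberg over all genes tested), in one fit of 12 libraries per sex label (5918 and 4474 genes) and one of all 24 (5462 genes) for differences between sex labels. CPM values use TMM factors computed over all 24 libraries, while each fit of 12 libraries has its own TMM factors. DESeq2 1.42.0, limma 3.58.1 (voom with sample weights), other scalings, no filter, a replicate block and leaving out libraries were alternatives. The edgeR step was also run on simulated data, whose outcome is not reported here.

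The text names the 3 most abundant members of each complex (all 4 of complex II), the 4 with the smallest p in each comparison with control, the 2 with the smallest p in each other comparison, L paralogs with reads, members without reads, SdhA and SdhB, and from each further list the 2 genes with the smallest p at female-labelled 2 hr, plus blw, which has one of the 2 smallest at male-labelled 4 hr; others are named as chosen after their values were seen. Members and lists were chosen with earlier results of these data known. Counts limit precision. The floors cover counting error only. An SE was derived from the edgeR test, as the absolute log2 fold change divided by the square root of its F statistic. An SD comes from the 3 libraries of a group, and both SE and SD include the spread between libraries. Same-numbered replicates had all 3 correlations over 0.1 between male-labelled controls and 1 hr (0.106 to 0.341) and 2 hr (0.164 to 0.532). Between controls and injured libraries this held in no other comparison, and in these 2 the same number was not the best match. Among injured groups of a sex label it also held for female-labelled 2 and 4 hr (0.128 to 0.605), where the same number was the best match. It held as well for male-labelled 1 and 2 hr (0.150 to 0.409), where it was not. Nothing in the labels says what the numbers share. 0 of 276 pairs of libraries held identical values.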

Additional observations from a re-analysis of the deposited data

How the results depend on the processing

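No member was called in any comparison under any alternative run, leaving out a library included. The calls over all genes did depend on the settings: without the low-count filter the edgeR calls were 2 genes at female-labelled 1 hr, 95 at 2 hr and 13 at 4 hr, 1 at male-labelled 2 hr and 7 at 4 hr, 27 and 6 in the 2 hr and 4 hr sex-label differences and 1 between controls. DESeq2 called 27 genes at female-labelled 2 hr and 4 in the 2 hr sex-label difference, and the fit of all 24 libraries called 9 at female-labelled 2 hr. Leaving out libraries gave 0 to 20 at female-labelled 2 hr, with 20 without 2 hr replicate 1, and 0 to 3 in the 2 hr difference.

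The median log2 fold change of the members at female-labelled 2 hr was -0.27 with library size alone, 0.22 with limma-voom and -0.12 to 0.22 as libraries were left out, and that of the 4 hr sex-label difference was 0.0023 with library size alone. Summed log2 ratios with library size alone were -0.28 (complex I), -0.25 (III) and -0.27 (V) at female-labelled 2 hr and -0.49 (IV) and -0.15 (V) at 4 hr. With RLE size factors complex V was at 0.26 at 2 hr. With the most abundant member left out complex II was at 1.44 and 1.58 at 2 and 4 hr and complex V at 0.27 and 0.31.

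Some signs rested on 1 library. As libraries were left out, ATPsynbeta at female-labelled 1 hr ranged from -0.24 to 1.35 and ND-42 from -0.11 to 1.11, both lowest without 1 hr replicate 1. In male-labelled flies SdhA ranged from -0.0092 to 1.12 at 1 hr, -1.69 to 1.72 at 2 hr and -0.91 to 0.22 at 4 hr, SdhB at 2 hr from -1.84 to 0.32, and the 1 hr sex-label difference of SdhA from -0.13 to 2.29. With limma-voom SdhA was at -0.60 at male-labelled 2 hr and 0.18 at 4 hr. The cause was not tested in any of these.

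With the replicate block the members called were 0 in every comparison. Depth limits what could be seen: in the shallowest library 3 counts are worth 51.2 CPM, close to the mean level of SdhA. The spread between libraries limits it too. The common coefficient of variation that edgeR fitted was 0.79 for female-labelled and 0.37 for male-labelled libraries. The summed levels without both libraries with little roX1 were an alternative chosen after seeing the data.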
